A study of Mus musculus with 2 samples.

Results

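Galectins are the sugar-binding proteins examined here in mouse eosinophils, as 6 genes: Lgals1, Lgals3, Lgals3bp, Lgals4, Lgals8 and Lgals9. They were chosen by symbol, as the rows of the deposited tables that carry one of these names, out of 23343 genes in all, and each name matched 1 row. The cells were sorted as CCR3+ and SiglecF+ from the bone marrow of naïve C57BL6J mice, with marrow pooled before sorting. The labels name no genetic change or agent, and the number of mice in a pool is not given. Stranded poly(A) libraries were made from 2 independent sorts, called sort 1 and sort 2 after the numbers in their titles. Both libraries belong to 1 group, so there is no second condition, and a difference between them is a difference between 2 libraries only.

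Galectins share a carbohydrate-recognition domain that binds galactose-containing sugar chains. They lack a secretion signal, and they act inside cells as well as on the cell surface and outside the cell, where they bind and cross-link glycoproteins. Single-domain galectins (Lgals1), a chimera with a long flexible tail (Lgals3) and tandem forms with a domain at each end (Lgals4, Lgals8, Lgals9) are the classical types. Lgals3bp is the exception among the members, being not a lectin but a secreted, heavily glycosylated protein that galectins bind. Eosinophils have a special link to the family, because the protein of human Charcot-Leyden crystals is a galectin for which mice have no known counterpart gene, and because galectin-9 attracts eosinophils.

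The part of the coding sequence that makes a galectin a sugar binder is shown for the 3 members with the highest levels. Each run starts at the histidine codon of the binding signature and ends at the glutamate codon after the conserved tryptophan. Capitals mark the codons for histidine, any residue, asparagine, proline and arginine at the start, and for tryptophan, glycine, any residue and glutamate at the end.
Lgals9, first domain: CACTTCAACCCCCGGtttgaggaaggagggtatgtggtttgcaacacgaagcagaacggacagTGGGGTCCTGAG
Lgals9, second domain: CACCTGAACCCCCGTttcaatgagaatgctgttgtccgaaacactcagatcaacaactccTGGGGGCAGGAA
Lgals3, only domain: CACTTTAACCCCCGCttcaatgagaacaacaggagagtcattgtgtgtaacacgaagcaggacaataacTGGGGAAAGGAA
Lgals8, first domain: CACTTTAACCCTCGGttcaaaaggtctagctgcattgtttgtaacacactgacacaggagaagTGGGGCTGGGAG
Lgals8, second domain: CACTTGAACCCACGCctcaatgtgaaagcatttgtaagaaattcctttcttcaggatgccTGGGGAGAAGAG

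These stretches come from GENCODE transcripts on GRCm38, the build also called mm10, matched to the deposited rows by RefSeq accession, and each lies within 1 exon. In Lgals9 they are at chr11:78973066-78973140 and chr11:78965743-78965814 on the minus strand. In Lgals3 the stretch is at chr14:47384642-47384722 on the plus strand, in exon 5 of 6. In Lgals8 they are at chr13:12454813-12454887 and chr13:12447195-12447266 on the minus strand, in exons 4 and 9 of 10. The tryptophan followed the histidine by 21 and 20 residues in both tandem genes shown and by 23 residues in Lgals3.

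The signature set the 5 lectins apart from Lgals3bp. It was searched in the translated coding sequence, in frame, with the tryptophan 19 to 25 residues after the histidine. Of 20305 genes with a matched coding transcript, 7 held it, or 0.0345%, and all 7 were galectins: the 5 lectin members, Lgals2 and Lgals7. The letters are those of the galectin family itself, so that galectins hold them is no independent result. Other genes listed for the family, such as Lgals12 and Lgalsl, were not among the 7. Lgals4, Lgals8 and Lgals9 held 2 copies each, and Lgals1 and Lgals3 held 1. Lgals3bp, whose coding region of 577 codons is the longest of the 6, held none. Lgals1 had the shortest coding region with 135 codons, and in Lgals3, with 264 codons, the signature began only at codon 172, after the tail.

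**Figure D1:**
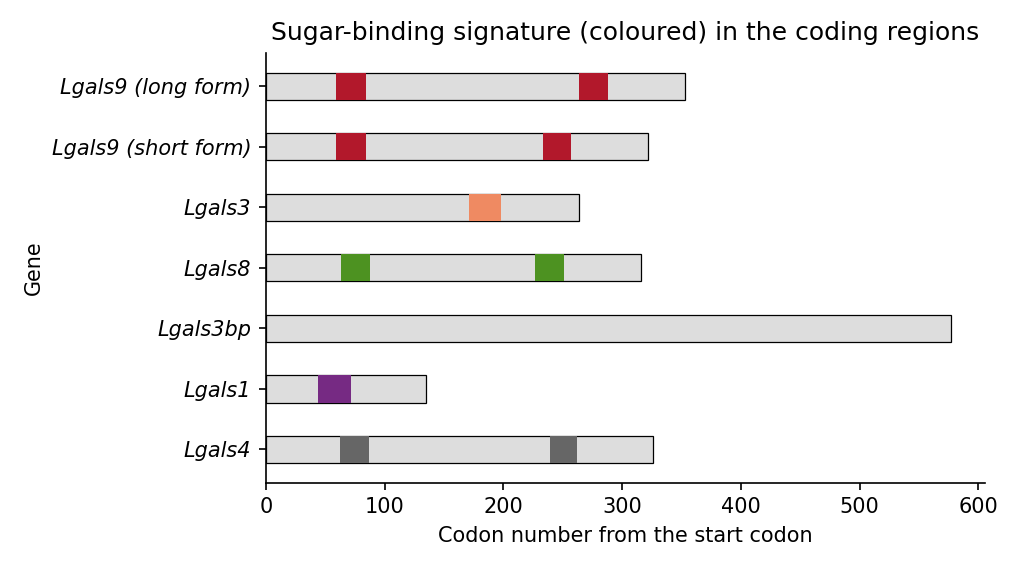
Coding regions of the 6 genes drawn to scale from the start codon (x axis, codon number), with the sugar-binding signature coloured; Lgals9 is drawn as both of its RefSeq forms, of 353 and 322 codons. The tandem genes carry a copy near each end, Lgals3 carries 1 copy in its latter part, and Lgals3bp carries none.

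The sorts were checked before the galectins were read. All 9 eosinophil markers were detected, a gene being called detected at an RPKM (reads per kilobase of transcript, scaled to sequencing depth) of at least 1 in both sorts, and their summed level was 3326 RPKM in sort 1 and 4078 in sort 2. The granule protein genes Ear1, at 1232 and 1462 RPKM, and Prg2, at 911 and 1339, were the highest. Late neutrophil markers were also abundant, with 11 of 11 detected and sums of 4230 and 3953 RPKM. The tables held 10087743 and 9264150 reads. The libraries stood apart in Xist, an RNA of female cells, with 47487 reads in sort 1 and 5 in sort 2. The pools therefore differed in the sex of their mice, and for every between-sort difference given here sex and sort cannot be told apart. They also differed in the ribosomal RNA precursor Rn45s, with 9.07% and 0.963% of the reads. In bulk RNA, fewer cells of a type and less RNA per cell cannot be told apart, and the share of any galectin transcript that came from cells other than eosinophils was not tested.

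Of the 6 members, 5 were detected, against 30.2% of all genes. Together the members took 5237 reads in sort 1 and 4749 in sort 2, which is 0.0519% (95% Wilson interval 0.05053 to 0.05334) and 0.0513% (0.04983 to 0.05274) of each table. No molecular identifiers are described for these libraries, so intervals from reads describe counting error alone. Lgals9 and Lgals3 dominated. Together they made up 76.6% and 79.3% of the summed RPKM of the 6 members, 80.9 and 71.7, which includes the non-lectin Lgals3bp.

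**Figure D2:**
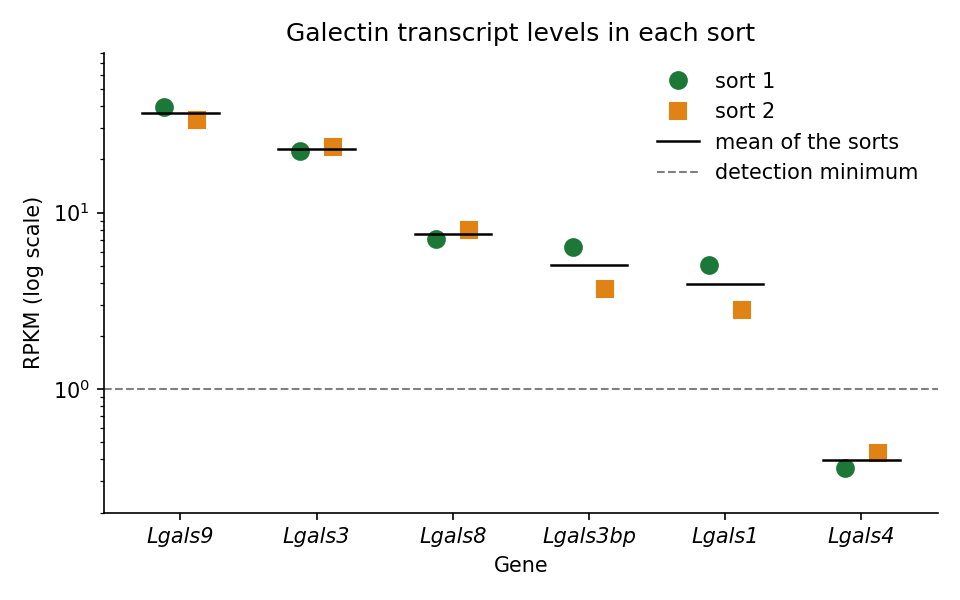
RPKM on a log axis of each gene in sort 1 (circles) and sort 2 (squares), with the mean of both (bars) and the detection minimum of 1 (dashed line). Lgals9 and Lgals3 lie above 20 RPKM in both sorts, Lgals8, Lgals3bp and Lgals1 lie between 2.80 and 7.94, and Lgals4 lies below the minimum.

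Lgals9 encodes galectin-9, a tandem galectin known as a chemoattractant of eosinophils. It had the highest level of the 6, with 39.8 RPKM in sort 1 and 33.5 in sort 2 (mean 36.6 ± 4.43, SD, n = 2), from 2432 and 2080 reads. Both sorts placed it near the top of the transcriptome, at rank 279 and rank 334 of all genes. Its row spans chromosome 11 from 78962979 to 78984924 on the minus strand and merges 2 RefSeq transcripts. These code for proteins of 353 and 322 residues that differ in the linker between the domains, and the deposited counts do not separate them.

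The start of Lgals9 is shown because it alone, of the 5 members with a RefSeq promoter window, held the exact repeat searched. That repeat is a form of the site that interferon regulatory factors bind, and near matches were not searched. The windows run from 250 bases before to 50 bases after a gene's start on GRCm38.p6, and Lgals1 had none. The stretch below is chr11:78984900-78984994, minus strand, from 70 bases before the start to 25 bases past it, with the repeats in capitals.
Lgals9 promoter: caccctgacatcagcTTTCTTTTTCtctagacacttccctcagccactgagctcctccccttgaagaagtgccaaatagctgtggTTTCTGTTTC

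The letters searched were GAAA, any 2 bases and GAAA again, on both strands, and both matches in Lgals9 were on the reverse strand. They began 55 bases before the start and at the 16th transcribed base. Of 32851 windows, 3.44% held the repeat, and a match is not evidence of a bound site. The letters GGGCGG, the GC box of the factor Sp1, were in the windows of Lgals3 and Lgals4, as in 35.7% of windows. AGATAA, a form of the core that GATA factors bind, was in none of the 5, against 11.2% of windows.

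Lgals3 encodes galectin-3, also known as Mac-2, which binds glycoproteins at the surface and marks damaged vesicles inside cells. It was second with 22.2 and 23.4 RPKM (mean 22.8 ± 0.814, SD, n = 2), from 1252 and 1322 reads. It ranked 581 and 507 among all genes. The level of Lgals9 exceeded that of Lgals3 1.79-fold in sort 1 and 1.43-fold in sort 2, and their ranges did not overlap. The row of Lgals3 is at chromosome 14 from 47373860 to 47386167 on the plus strand, and it also merges 2 transcripts, which have coding regions of the same length.

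Lgals8 encodes galectin-8, a tandem galectin that recognises sugars exposed on broken vesicles. Its levels were 7.12 and 7.94 RPKM (mean 7.53 ± 0.581, SD, n = 2), from 808 and 908 reads. This is 3.03-fold below Lgals3 by the means, with no overlap of ranges. The row lies at chromosome 13 from 12439415 to 12461738 on the minus strand. Of the 13 genes listed for the response to damaged vesicles, 9 were detected. The highest were the autophagy receptor Tax1bp1 at 31.6 and 40.2 RPKM and the autophagosome protein Map1lc3b at 12.3 and 11.2. Calcoco2, on the same list, had no read in either sort.

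Lgals3bp, the secreted glycoprotein that binds galectin-3, had 6.39 RPKM in sort 1 and 3.67 in sort 2 (mean 5.03 ± 1.92, SD, n = 2), from 561 and 323 reads. It lies at chromosome 11 from 118392752 to 118401931 on the minus strand. Its level was close to that of Lgals8 in sort 1, 1.11-fold below it, and 2.16-fold below it in sort 2. Both libraries thus had Lgals3bp below Lgals8, but by unequal margins. The lectin Lgals3 exceeded its binding partner 3.48-fold in sort 1 and 6.37-fold in sort 2.

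Lgals1 encodes galectin-1, a small lectin that works as a pair of single domains and is known for restraining T cells. It had 5.06 and 2.80 RPKM (mean 3.93 ± 1.60, SD, n = 2), from 164 and 91 reads. It lies at chromosome 15 from 78926725 to 78930465 on the plus strand. Lgals3bp exceeded it 1.26-fold and 1.31-fold, and these were the only neighbours in the order whose ranges over the sorts overlapped. Their order was nevertheless the same in each sort.

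Lgals4 encodes galectin-4, a tandem galectin of the intestinal lining. It was the 1 member not detected, with 0.359 and 0.436 RPKM (mean 0.397 ± 0.0543, SD, n = 2), from 20 reads (exact 95% Poisson interval 12.2 to 30.9) and 25 reads (16.2 to 36.9). Lgals1, the next member above it, was 9.89-fold higher by the means. The minimum sits close to these values: RPKM computed from the table's own totals, which are smaller than the authors' divisor, gave 1.43 and 1.95. Of 10 intestinal epithelium markers, 1 was detected, the keratin Krt18 at 2.45 and 1.23 RPKM, and 5 had no read in either sort. Next was the adhesion gene Cdh1, at 0.420 and 0.318 RPKM.

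The reads of Lgals4 cannot be given to it with certainty. There is also a row for Lgals6, near-identical in sequence, and it lies wholly within the row of Lgals4 on chromosome 7. The Lgals4 row runs from 28833794 to 28841703 and the Lgals6 row from 28834182 to 28841633, both on the plus strand. Both rows thus describe the same locus of this build, and their reads were not shown to come from separate genes. Lgals6 had 10 and 11 reads, or 0.294 and 0.322 RPKM. The sums over both rows were 30 and 36 reads, or 0.653 and 0.758 RPKM, still under the minimum. A read counted in both rows would be in these sums more than once. No row of another gene overlapped Lgals1, Lgals3, Lgals3bp, Lgals8 or Lgals9. Of the 6 other genes listed for the family, Lgals6 among them, 0 were detected. Lgalsl, a galectin-like gene, came closest with 0.414 and 0.406 RPKM, and Lgals2 and Lgals12 had no read in either sort, which allows up to 3 reads, or 0.297 CPM (counts scaled to the table's total) in sort 1 and 0.324 in sort 2.

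**Figure D3:**
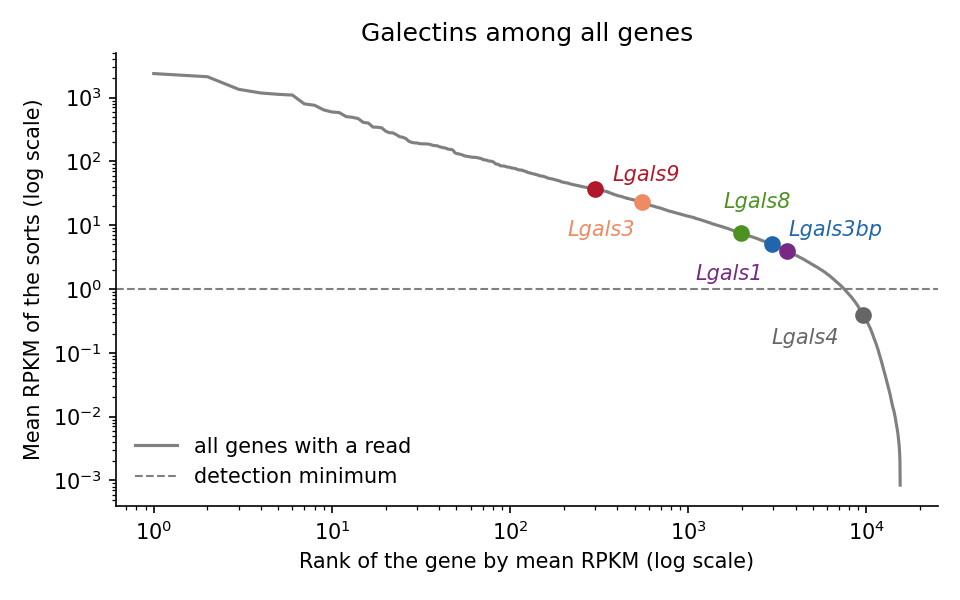
Mean RPKM of the sorts (y axis) against the rank of each gene by that mean (x axis), both on log scales, with the galectins marked on the curve of all genes that had a read. Lgals9 is at rank 301, Lgals3 at 552, Lgals8 at 1964, Lgals3bp at 2959, Lgals1 at 3595 and Lgals4 at 9573.

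Genes with the most similar pair of levels were named for each detected member, by the distance of log2(RPKM + 1) over the 2 sorts, which describes level in 1 cell population and nothing more. They were Tmcc1 and Sap25 for Lgals9, at distances of 0.0374 and 0.0480, and Far1 and the ribosomal protein gene Rps20 for Lgals3, at 0.0321 and 0.0426. For Lgals8 they were Abcg3 and Slc25a45, at 0.00500 and 0.0105. Syngr2 and Phf1 lay nearest to Lgals3bp, at 0.0177 and 0.0434, and Dpm2, a subunit of dolichol-phosphate-mannose synthase, and Slc48a1, a haem transporter, nearest to Lgals1, at 0.00344 and 0.0413.

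Between the sorts, Lgals3bp and Lgals1 were lower in sort 2 and the other members were nearer to equal. The split of each gene's reads between the libraries was compared with the split of their TMM-scaled sizes by an exact binomial test, two-sided, with Benjamini-Hochberg adjustment across the 12347 genes that had 10 or more reads in the 2 libraries together. Calls required both an adjusted p below 0.05 and a 2-fold difference. None of the 6 members was called, against 8.41% of tested genes.

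Without the fold requirement 5 of the 6 passed the adjusted p. Lgals1, Lgals3bp and Lgals9 were higher in sort 1, as were 21.6% of tested genes. Lgals3 and Lgals8 were higher in sort 2, as were 22.8%. Shares this large among all genes show how readily counts of 2 libraries differ beyond sampling noise. By edgeR's exact test, with a dispersion estimated from both libraries as 1 group, 0 of the 6 passed, 0 had an unadjusted p under 0.05, and 0.267% of genes passed. That dispersion was taken from the same differences between the sorts that were tested. A gene that fails this test is therefore not shown to be equal between the sorts.

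Lgals3bp had the smallest p of the 6. Its level in sort 1 was 1.66-fold that in sort 2 (95% interval of the counts 1.44 to 1.91), with an adjusted p of 3.0e-12 by the exact binomial test and of 1 by edgeR's exact test. For Lgals1 the fold was 1.72 (1.32 to 2.25), with adjusted p values of 0.000123 by the exact binomial test and 1 by edgeR's exact test. These are the 2 members with the largest difference, and neither is a highly expressed one. Lgals9 differed 1.12-fold (1.05 to 1.18) in the same direction, with an adjusted p of 0.00104 by the exact binomial test.

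The remaining members lay on the other side. Lgals8 was 1.18-fold higher in sort 2 (1.07 to 1.30), with an adjusted p of 0.00255, and Lgals3 was 1.11-fold higher (1.02 to 1.2), with an adjusted p of 0.0263, both by the exact binomial test. For Lgals4 the ratio of sort 2 to sort 1 was 1.31, with an interval from 0.699 to 2.49 and an adjusted p of 0.50 by the exact binomial test, so its reads do not fix a direction. Of the summed RPKM of the 6 members, Lgals3bp included, Lgals3 was 27.5% in sort 1 and 32.6% in sort 2. Lgals3bp was 7.89% and 5.11% of it and Lgals1 was 6.25% and 3.90%.

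**Figure D4:**
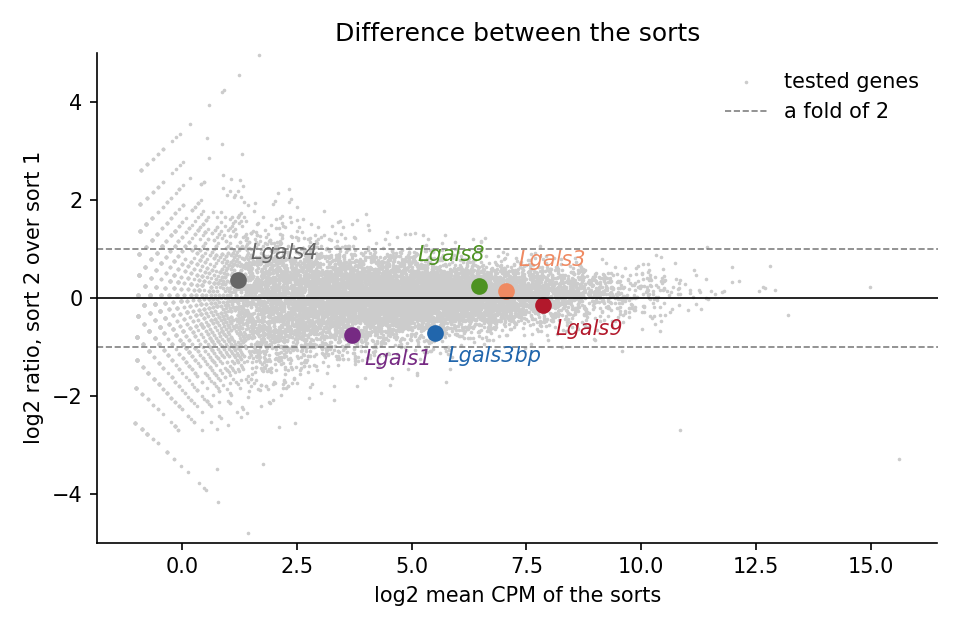
The log2 ratio of sort 2 to sort 1 (y axis) against log2 mean CPM (x axis) for each tested gene (grey) and the 6 members (coloured), with dashed lines at a fold of 2; 7 genes lie outside the axis. Lgals1 and Lgals3bp lie at -0.77 and -0.73, inside the dashed lines, and the other members lie between -0.16 and 0.36.

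Most markers of macrophages had lower levels in sort 2, as Lgals3bp and Lgals1 did. Of 16 monocyte and macrophage markers, 13 had ratios below 0, against 6180 of the 12347 tested genes. Their median log2 ratio was -0.39, against 0 for all tested genes to 2 decimals, and their summed level was 227 RPKM in sort 1 and 157 in sort 2. Most of that sum was Lyz2, a lysozyme that neutrophils also express, with 175 and 121 RPKM, followed by the growth factor receptor Csf1r with 3107 and 2366 reads, so the sum is not a level of macrophages alone. Of all 12347 tested genes, 645 were called lower in sort 2 and 393 were called higher. Among the 16 markers, 5 were called lower in sort 2. They included Cd163, a scavenger receptor of macrophages, with 163 and 35 reads, and the Fc receptor Fcgr1 with 45 and 10. The others were the complement genes C1qa with 16 and 0, C1qb with 203 and 90 and C1qc with 195 and 72. Cx3cr1, a chemokine receptor of monocytes, was called higher in sort 2, with 2 and 26 reads. Of these 6, edgeR's exact test passed only Cd163, with an adjusted p of 0.0492.

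Late neutrophil markers had 9 of 11 ratios below 0 and a median of -0.24. Its 2 highest genes lay on opposite sides: Retnlg, a secreted resistin-like protein, had 2321 and 2439 RPKM, and S100a9, a calcium-binding protein, had 879 and 716. None of the 11 was called, against 8.41% of all tested genes. Eosinophil markers had 1 of 9 ratios below 0 and a median of 0.17. The part of macrophage or neutrophil RNA in the levels of Lgals3bp and Lgals1 was not tested. All 11 late neutrophil markers were detected, but only 9 of 16 monocyte and macrophage markers were, against 30.2% of all genes. The median levels of the latter were 1.26 and 1.10 RPKM, and C1qa had no read in sort 2.

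Interferon-stimulated genes were set beside Lgals3bp and Lgals9, which interferons are known to induce. Of 16, 8 were detected, with median levels of 1.72 and 1.07 RPKM. Among them was Oasl2, an oligoadenylate synthetase-like gene, at 7.02 and 8.08 RPKM. Of the 15 tested genes, 2 were called, both lower in sort 2, as were 645 of all 12347 tested genes. They were Isg15, a ubiquitin-like modifier, with 52 and 21 reads, and Mx1, an antiviral GTPase, with 43 and 7 reads. Neither passed edgeR's exact test, with adjusted p values of 0.822 and 0.107. In the list as a whole, 7 of 15 tested genes had ratios below 0 and the median log2 ratio was 0.08. With the fold requirement left out, 6 of the 15 were lower in sort 2 and 4 were higher (exact binomial test, adjusted p below 0.05). Among all 12347 tested genes these numbers were 2672 and 2809. The part of interferon in the ratios of Lgals3bp and Lgals9 was not tested.

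Between-sort ratios also followed transcript GC content, with a Spearman correlation of -0.54 across 8680 genes with at least 100 reads, which are not independent replicates and share the same 2 libraries. Lgals3bp, with 55.8% GC, Lgals3, with 55.3%, and Lgals1, with 54.9%, lay above the median of 49.6%, and Lgals8, with 45.8%, lay below it. Genes of the same GC content had fitted log2 ratios of -0.24, -0.22, -0.20 and 0.16, in that order. Relative to those, the log2 ratio was -0.49 for Lgals3bp, 0.36 for Lgals3, -0.57 for Lgals1 and 0.08 for Lgals8, in place of -0.73, 0.15, -0.77 and 0.24. Lgals9, with 51.7% GC, and Lgals4, with 53.9% but too few reads to enter the fit, also lay above the median. Their fitted log2 ratios were -0.06 and -0.16, and their ratios relative to those were -0.10 and 0.51. Lgals3 and Lgals3bp had nearly the same GC content and ratios on opposite sides of the fit. The part of GC content in the ratios of the members was not tested.

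**Figure D5:**
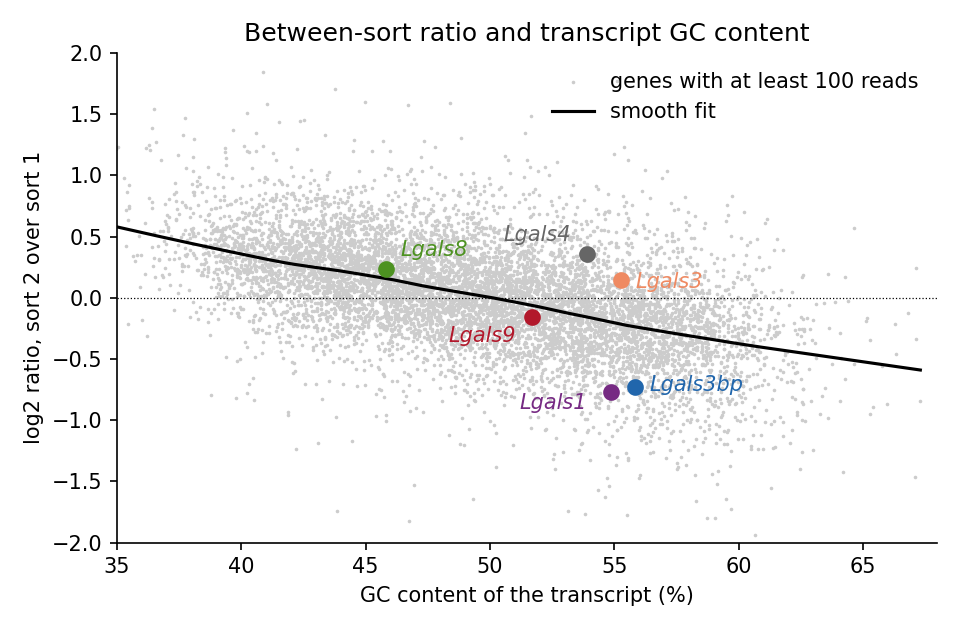
The log2 ratio of sort 2 to sort 1 (y axis) against transcript GC content in percent (x axis) for genes with at least 100 reads (grey, 8665 of 8680 within the axes), with a smooth fit (black line) and the 6 members (coloured). Lgals1 and Lgals3bp lie below the line, Lgals3 and Lgals4 above it, and Lgals8 and Lgals9 close to it.

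Most of the genes listed for building and capping sugar chains were detected, against 30.2% of all genes. Whether their products make or mask sugars that galectins bind in these cells was not tested. Of 18 genes for branching of N-linked sugars and addition of galactose, 13 were detected, with medians of 2.36 and 2.25 RPKM. B3gnt2, which extends galactose-containing chains, had 15.3 and 17.4 RPKM and Man1a, a mannosidase that trims early N-glycans, had 12.3 and 14.5. Of 12 genes for capping and for cores of O-linked sugars, 9 were detected, led by Fut8, which adds core fucose, at 14.5 and 22.2 RPKM and the branching enzyme Gcnt1 at 17.8 and 17.3. None of the 28 tested genes of both lists was called, against 8.41% of all tested genes.

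Among 15 glycoproteins known to bind galectins, 9 were detected, with medians of 12.9 and 11.5 RPKM. The integrin subunit Itgam had 322 and 351 RPKM and the phosphatase Ptprc, or CD45, had 104 and 110. Both exceed every galectin in level. Havcr2, or TIM-3, a receptor described for galectin-9, was under the detection minimum with 32 and 4 reads, and Lag3, a T cell inhibitory receptor, with 14 and 2. These were the only genes called of 11 tested, both lower in sort 2, as were 645 of all 12347 tested genes. Their adjusted p values were 1.4e-05 and 0.0124 by the exact binomial test. Neither passed edgeR's exact test, with adjusted p values of 0.111 and 0.503.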

How the data were processed

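Per the submitters' processing notes, reads were aligned with STAR 2.4.0c on mm10. The sources used here do not name the counting program, its strand setting or its filters. Each deposited row is a set of RefSeq accessions at 1 locus, for which the authors gave a raw read count and an RPKM value. Counts and RPKM were summed by gene symbol over 26099 rows. For rows with 1 transcript the RPKM divisor exceeded the table's reads, which summed to 25.0% and 22.9% of it, so RPKM is lower than on the table's own total by a like factor in both sorts.

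The members and gene lists were chosen with earlier results of these data known. Named genes were all members, the 2 genes nearest to each detected member, the 2 highest of each list, of which 1 gene is not reported here, and called list members; Calcoco2, Lgals2, Lgals7, Lgals12, Xist and Rn45s were added after their values were seen. Of the 12 marker and pathway lists, the primary granule list is otherwise not used: 6 of 6 of its genes were detected, with a median log2 ratio of 0.32, led by Mpo at 161 and 173 RPKM and Elane at 66.9 and 87.7. Log2 ratios used CPM with a prior count of 2. The labels do not say how the mice were divided between the sorts, though Xist reads show that the pools differed, and p-values compare 2 libraries only. With 1 library per sort, edgeR's quasi-likelihood test has no residual degree of freedom for a difference between the sorts. Tools were Python 3.11.15, SciPy 1.17.1, R 4.3.3, edgeR 4.0.16 (TMM, exact test) and DESeq2 1.42.0 (size factors). On simulated counts of these libraries, with sampling noise only, calls were made for 99 of 100 genes with a 4-fold change, for 90 of 100 with a 2.5-fold change and for 2 of 12146 without one. GC content and lengths came from GENCODE M21, and the GC fit was a lowess over 30% of genes. Coordinates are 1-based on mm10.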

Additional observations from a re-analysis of the deposited data

How the results depend on the processing

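The order of the 6 members was the same with CPM in place of RPKM, with RPKM recomputed from the counts and GENCODE lengths, and in each sort alone. The number detected was 5 in each sort alone and at a minimum of 0.5 RPKM, 6 at a CPM of at least 1, and 3 at a minimum of 5 RPKM, where Lgals3bp and Lgals1 fail in sort 2. The number called between the sorts was 0 with DESeq2 size factors, total counts, a minimum of 1 or 50 reads, and edgeR's exact test, and 5 at any fold. Over all genes, a minimum of 50 reads gave 526 calls in place of 1038, with fewer genes tested, and edgeR's exact test gave 33. The log2 ratios of all 6 members kept their direction under each of the 6 alternatives: from -0.83 to -0.57 for Lgals1, -0.78 to -0.49 for Lgals3bp, -0.25 to -0.10 for Lgals9, 0.07 to 0.36 for Lgals3, 0.08 to 0.29 for Lgals8 and 0.22 to 0.51 for Lgals4. With 2 libraries of 1 group, no spread between animals can be given. No paired analysis was possible because there is 1 group.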
